A study of Mus musculus with 6 samples.

Results

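The genes described here are 48 that copy DNA or prepare cells for S phase. They were chosen by function: origin licensing, activation of the replicative helicase, the DNA polymerases, the sliding clamp and its loader, single-strand binding and joining of Okazaki fragments, nucleotide supply, chromatin assembly behind the fork, and regulators of the step from G1 into S. All 48 were among the 19057 genes named on the array, with 91 probes of its 45281. Of these, 43 genes were tested, with 65 of the 14651 probes that were. A probe was tested where its signal had a detection p under 0.01 on at least 3 of the 6 arrays, and a gene with several tested probes is represented by the brightest.

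RNA from thymus lymphocytes was read on Illumina mouse bead arrays to compare mice without KAP1 (gene symbol Trim28) in the T lineage with littermates. The tested mice, KAP1 KO, carried CD4-Cre and a floxed Kap1 allele, and gave arrays KO1, KO2 and KO3. The littermates, WT, are given as wt with the floxed Kap1 allele, and gave arrays WT4, WT5 and WT6. Both groups were 8 to 12 weeks old and of strain C57/bl6-129sv. The cells were released from the thymus by mechanical means, no sort is named, and 100 ng of RNA was amplified for each array. CD4-Cre is a transgene that acts in developing T cells from the stage that carries both CD4 and CD8, so earlier thymocytes and cells of other lineages are outside its reach. The sources used here do not state the number of floxed copies in each mouse or the exons that Cre cuts out. Each array stood for 1 labelled replicate. A p-value sets the group difference against the spread between the 3 samples of a group, moderated over all tested probes.

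Replication starts from origins that are licensed in G1, when the origin recognition complex, Cdc6 and Cdt1 load the Mcm2 to Mcm7 helicase. Cyclin E and Cdc7 kinases then bring in Cdc45 and the GINS complex, polymerases extend the strands with the clamp Pcna, and E2F factors switch on many of these genes at the entry into S phase. In the thymus, most division takes place in immature thymocytes, while most small cells that carry both CD4 and CD8 are at rest.

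The checks of the samples were as follows. Trim28 had log2 signals of 10.83, 11.01 and 10.23 in KAP1 KO, against 12.39, 12.25 and 12.59 in WT. The groups did not overlap, and the log2 difference was -1.72 ± 0.26 (SE, n = 3 per group; limma, adjusted p = 0.230). Whether its probe lies in the deleted stretch is not given. Of 13 thymocyte identity genes on the array, which include Cd3e, Cd4 and Zap70, 12 were tested, with differences from -0.29 to 0.43. The Cd8a probe was detected on no array. The number of probes detected on an array ran from 13973 to 15182. Before normalization, the mean signal was 678.5, 522.8 and 427.1 on KO1, KO2 and KO3, against 578.8, 531.8 and 340.1 on WT4, WT5 and WT6. KO3 and WT6 were thus the dimmest arrays. In limma, 4 of the 14651 tested probes, or 0.0273%, had an adjusted p under 0.05. A second header line numbers the arrays, without saying what the numbers stand for. They put KO1 next to WT4, KO2 next to WT5 and KO3 next to WT6, with the last 2 arrays far from the rest. These neighbours are called pairs here.

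Replication genes had lower signals on average in KAP1 KO than in WT, and array KO3 carried most of the difference. Of the 43 tested genes, 40 had a negative log2 difference, where 52.1% of all 8200 tested genes did. The median over the 43 was -0.51, with quartiles of -0.75 and -0.39, and the median over all tested genes was -0.01. Cdc6, which loads the helicase, was lowest with -1.18, and Prim1, the catalytic primase subunit, was highest with 0.11. A signal more than 1.5-fold lower was found for 18 of the 43, against 2.4% of all tested genes.

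None of these differences passed the test across the whole array. In limma the adjusted p was 0.998 or more for every tested replication gene, and 0 of the 43 were called, where 0.0366% of all tested genes were. At an unadjusted p under 0.05, 4 were lower in KAP1 KO, namely E2f2, Chaf1a, Pold1 and Pole, against 1.28% of all tested genes, and 0 were higher, against 2.22%. The 95% interval of the difference spanned 0 for the other 39 genes, and its median half-width was 0.80. Every KAP1 KO array lay below every WT array for 10 genes (Cdc6, Mcm4, Mcm10, Pold1, Pole, Rfc1, Lig1, Chaf1a, E2f1 and E2f2), against 3.39% of all tested genes. The opposite order was found for 0 of the 43, against 4.61%.

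The KAP1 KO arrays differed far more from each other than the WT arrays did. As the mean over the 43 genes of the log2 signal minus the gene's own mean, the level was 0.02 on KO1, 0.25 on KO2 and -1.07 on KO3, against 0.41 on WT4, 0.31 on WT5 and 0.08 on WT6. KO1 and KO2 thus lay within or near the WT range, and KO3 lay well under every other array. The group levels were -0.27 ± 0.71 in KAP1 KO and 0.27 ± 0.17 in WT (SD, n = 3 each). The summed linear signal of the 43 genes was 63094.8, 69843.5 and 38107.1 on the KAP1 KO arrays, against 78533.8, 75957.1 and 68432.3 on the WT arrays. KO3 was the lowest of the 6 arrays for 40 of the 43 genes, while it was lowest for 19.7% of all tested genes. Taken 1 array at a time, KO1 was below every WT array for 24 of the 43, KO2 for 13 and KO3 for 41, where 21.4%, 35.1% and 28.1% of all tested genes were. The count on KO2 was therefore near the background. The SD over KAP1 KO arrays exceeded that over WT arrays for 42 of the 43, against 66.4% of all tested genes. Its median was 0.71 in KAP1 KO and 0.20 in WT, where the medians over all tested genes were 0.31 and 0.22.

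**Figure D1:**
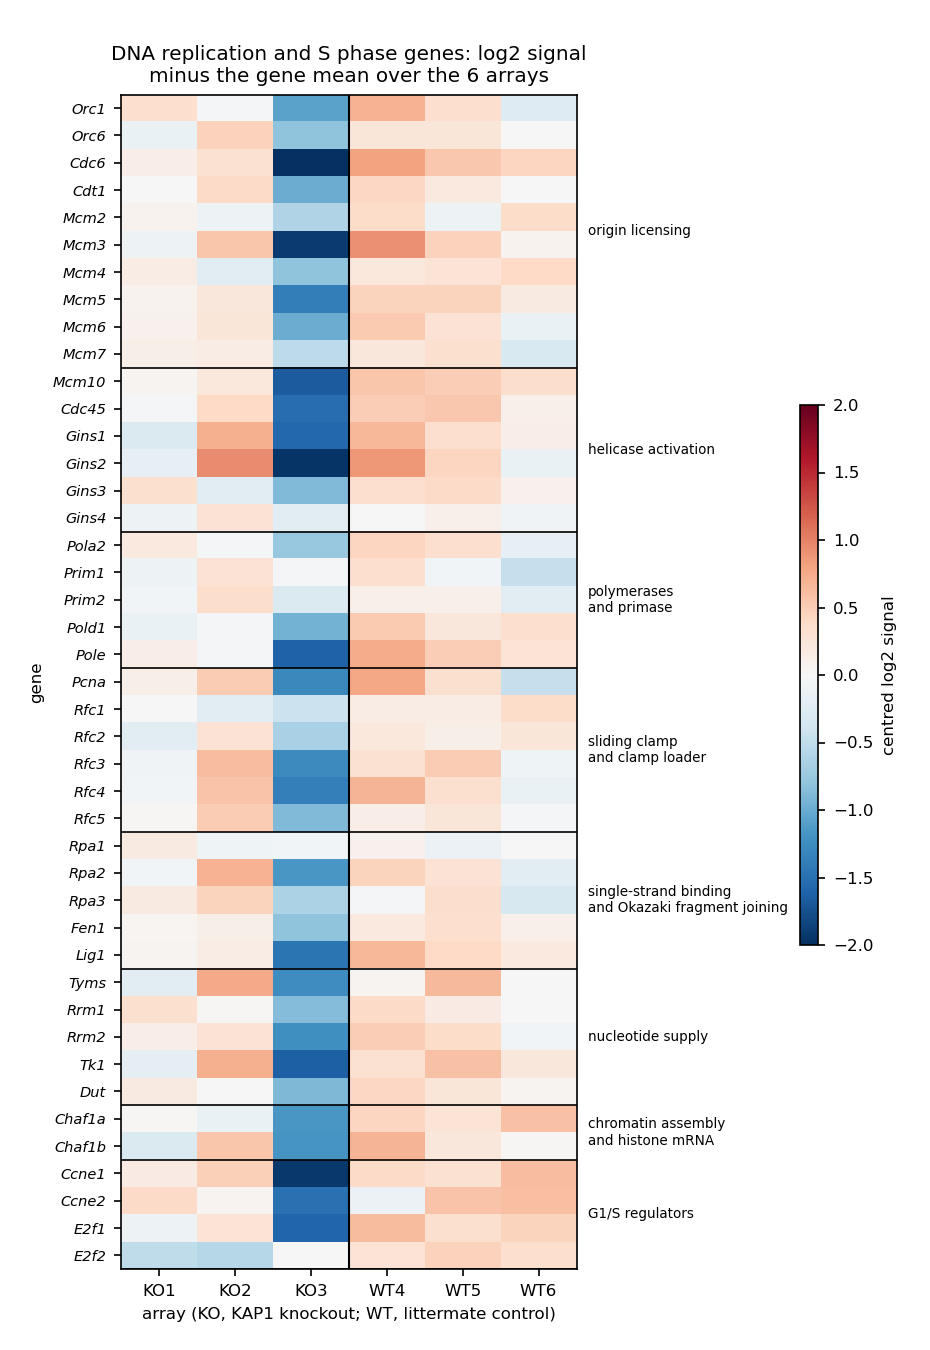
Log2 signal of each of the 43 tested genes minus its mean over the 6 arrays, with genes down the page by role and arrays across, KAP1 KO left of WT. Blue marks values under the gene's mean and red values over it; the KO3 column is the lowest of the 6 for 40 genes, and E2f2, in the last row, is lowest on KO2.

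Within the pairs of neighbouring header numbers, the genes did not behave alike. The median difference over the 43 was -0.38 for KO1 minus WT4, -0.03 for KO2 minus WT5 and -0.998 for KO3 minus WT6. The number of genes lower in the knockout was 40 in the first pair, 23 in the second and 42 in the third, against 50.6%, 50.8% and 49.2% of all tested genes. In the third pair 21 genes were more than 2-fold lower, against 2.79% of all tested genes. In all 3 pairs 22 of the 43 were lower, against 12% of all tested genes. With the pair as a block in limma, 12 of the 43 were lower at an unadjusted p under 0.05, against 2.13% of all tested genes, and 0 passed the adjusted threshold.

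Without KO3, the median difference of the 43 genes was -0.12, against 0.00 for all tested genes, and 30 were lower, against 49.8%. E2f2, at -0.91, was then the only gene lower by over 0.5, and the only one lower at an unadjusted p under 0.05, against 1.08% of all tested genes. Rpa3 was highest, with 0.32. KO1 and KO2 lay below every WT array for 10 of the 43, against 7.8% of all tested genes, and these were the same 10 genes that separated the groups on all 6 arrays. The median was also moved by KO2, the KAP1 KO array with the highest level: without it, it was -0.79, and 19 of the 43 were lower at an unadjusted p under 0.05, against 2.47% of all tested genes. In bulk RNA, fewer cells in S phase and less of these transcripts per cell cannot be told apart.

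**Figure D2:**
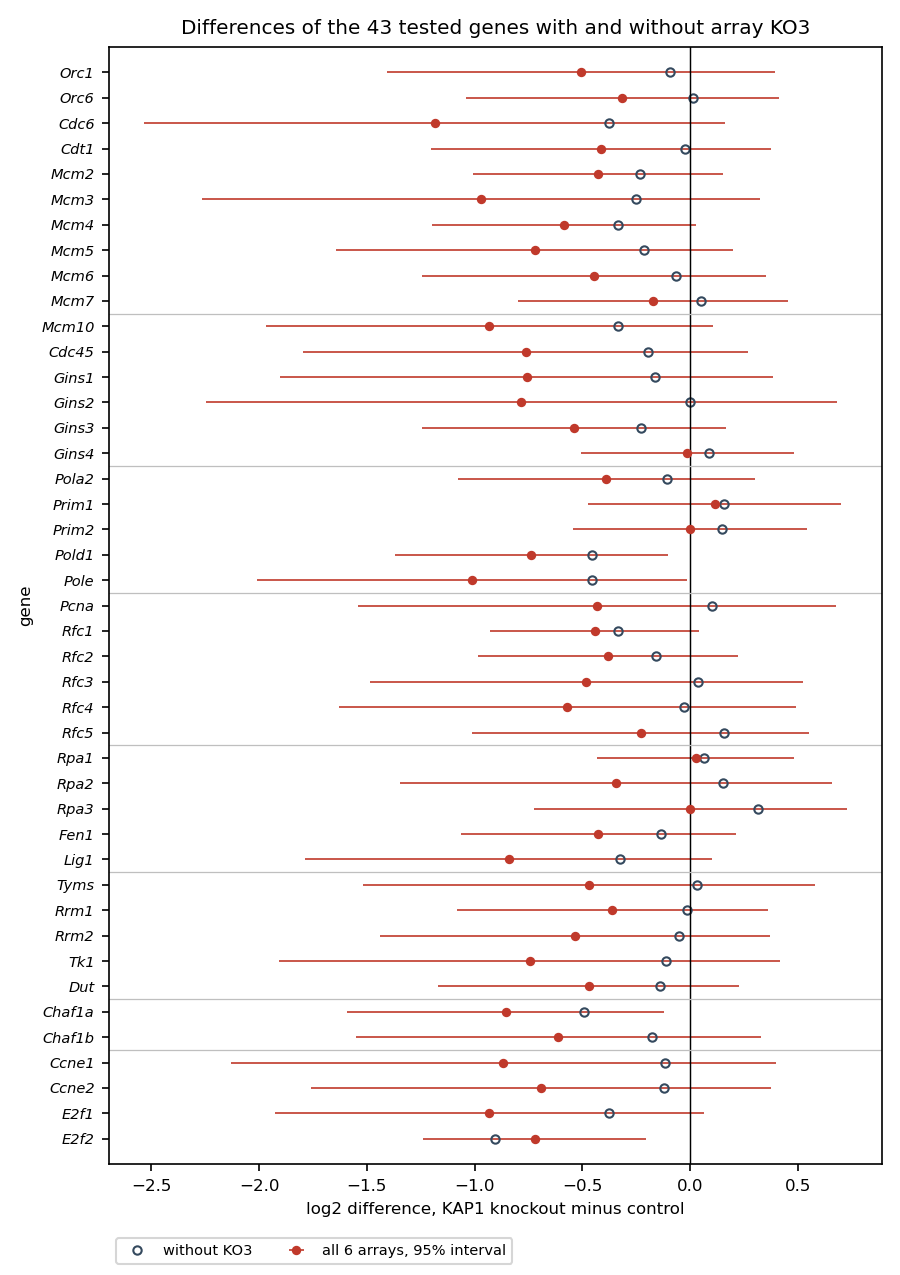
Log2 difference of each tested gene, KAP1 KO minus WT, on all 6 arrays (filled points with the 95% interval) and without KO3 (open points), with genes down the page by role. Most open points lie nearer 0 than the filled ones, while that of E2f2 lies further from 0, at -0.91 against -0.72.

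The sequence before these genes was set beside the values, since E2F factors are known to bind promoters of replication genes. RefSeq promoter windows of the assembly GRCm38.p6, which run from 250 bases before the start of a gene to 50 after, were given for 39 of the 48 genes, in 44 windows. The others are Gmnn, Mcm4, Gins1, Gins2, Gins4, Pole, Prim2, Rfc2 and Ccne2. The E2F letters searched were TTTCGCGC, TTTGGCGC, TTTCCCGC and TTTGCCGC on either strand, and matches may overlap. They were found for 14 of the 39 genes, or 35.9%, against 5.19% of the 6745 tested genes with a window and 2.61% of the 27025 genes in the RefSeq table. Of all 32851 windows of this length, 2.26% held them. The 4 windows that follow were chosen after their values were seen. They hold such matches in genes that load the helicase, extend the strand or regulate the program. They are written 5′ to 3′ on the strand of the gene, and capitals mark the E2F letters.
Cdc6: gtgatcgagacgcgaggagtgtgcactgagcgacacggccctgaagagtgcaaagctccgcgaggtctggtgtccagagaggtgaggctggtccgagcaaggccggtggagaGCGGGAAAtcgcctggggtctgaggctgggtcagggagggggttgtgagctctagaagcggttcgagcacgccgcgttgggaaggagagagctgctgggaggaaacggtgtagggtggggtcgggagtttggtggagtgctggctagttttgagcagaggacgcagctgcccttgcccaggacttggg
Mcm6: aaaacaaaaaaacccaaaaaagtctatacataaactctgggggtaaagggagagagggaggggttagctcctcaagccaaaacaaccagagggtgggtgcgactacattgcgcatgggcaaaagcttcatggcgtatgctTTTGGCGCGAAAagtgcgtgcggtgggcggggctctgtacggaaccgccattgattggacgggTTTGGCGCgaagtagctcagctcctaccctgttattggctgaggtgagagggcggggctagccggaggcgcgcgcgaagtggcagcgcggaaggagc
Pold1: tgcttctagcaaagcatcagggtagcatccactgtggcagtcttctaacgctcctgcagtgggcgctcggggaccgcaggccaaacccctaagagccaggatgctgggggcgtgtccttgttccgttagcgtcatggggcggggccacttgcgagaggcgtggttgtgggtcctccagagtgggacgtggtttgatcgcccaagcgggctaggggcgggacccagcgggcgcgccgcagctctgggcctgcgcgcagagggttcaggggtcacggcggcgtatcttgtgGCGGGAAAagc
E2f2: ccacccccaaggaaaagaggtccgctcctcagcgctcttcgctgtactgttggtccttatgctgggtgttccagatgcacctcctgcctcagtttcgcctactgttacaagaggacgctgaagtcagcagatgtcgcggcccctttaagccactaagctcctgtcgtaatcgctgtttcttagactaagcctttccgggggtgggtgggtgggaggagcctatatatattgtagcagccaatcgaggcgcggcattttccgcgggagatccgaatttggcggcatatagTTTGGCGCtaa
The Cdc6 window is chr11:98907901-98908200 on the plus strand, and its match begins 138 bases before the start. The Mcm6 window is chr1:128359656-128359955 on the minus strand, with matches that begin 110, 106 and 47 bases before the start, and the first 2 overlap. The Pold1 window is chr7:44548766-44549065 on the minus strand and its match begins 39 bases after the start. The E2f2 window shown is chr4:136172024-136172323 on the plus strand, with a match 39 bases after the start, and the table holds a second E2f2 window without one. A match of letters describes the sequence and is not a bound site.

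By role, the E2F letters were found for 7 of the 9 licensing genes with a window, 3 of 5 polymerase and primase genes, and 0 of 5 nucleotide supply genes. Letters known from genes of G2 and mitosis were searched in the same way. TTTGAA or TTCGAA, the CHR letters, were found for 8 of the 39 genes, or 20.5%, against 16.6% of tested genes. In mitosis and G2/M genes the share was 30 of 37, or 81.1%, while 3 of those 37 held the E2F letters. CCAAT was found for 24 of the 39, or 61.5%, against 43.8% of tested genes. Cdc6, Pold1 and E2f2, shown above, had array groups that did not overlap. Mcm6, with 3 matches, had a log2 difference of -0.45 and overlapping groups. Of the other genes whose groups did not overlap, Lig1 held the E2F letters. The windows given for Mcm10, Rfc1, Chaf1a and E2f1 did not, and Mcm4 and Pole had no window. The Mcm10 window ends on TTTGGCG, so a match across its edge could not be seen. Sequence outside the windows was not searched, so a match elsewhere in these genes, E2f1 included, could be missed. A link between the letters and the signals was not tested.

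**Figure D3:**
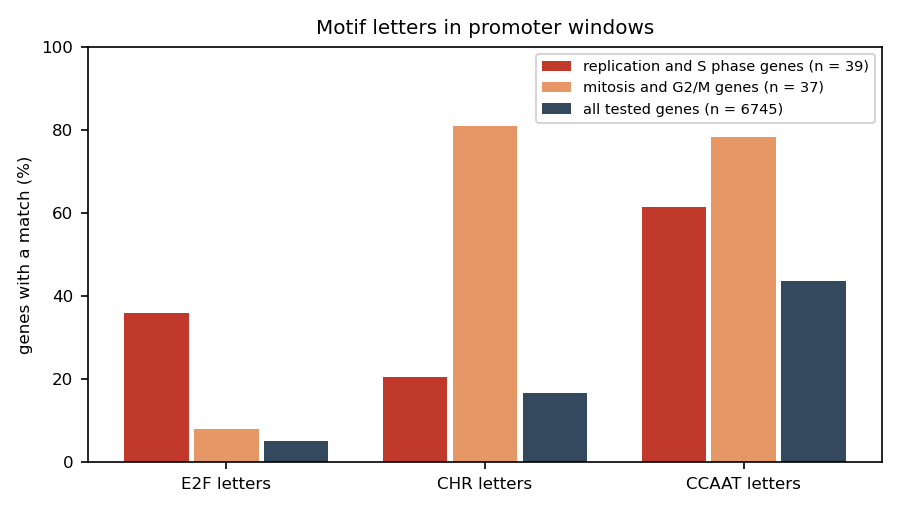
Share of genes (%) whose promoter window holds the E2F, CHR or CCAAT letters, for the replication and S phase genes with a window (39), mitosis and G2/M genes (37) and all tested genes with a window (6745). The E2F bars stand at 35.9%, 8.11% and 5.19%, and the CHR bars at 20.5%, 81.1% and 16.6%.

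Among the licensing genes, all 10 tested had a negative difference, with a median of -0.48, and KO3 was the lowest array for all 10. Cdc6, which brings the helicase to the origin, had log2 signals of 9.36, 9.53 and 7.02 in KAP1 KO, against 10.04, 9.77 and 9.66 in WT. The groups did not overlap, and KO3 lay more than 2 log2 units under the other knockout arrays. The difference was -1.18 ± 0.59 (SE, n = 3 per group), which was 2.27-fold lower in KAP1 KO. Mcm4, a helicase subunit, had 12.66, 12.27 and 11.71 in KAP1 KO, against 12.71, 12.78 and 12.90 in WT. Its groups did not overlap either, although KO1 was close to WT4, and the difference was -0.59 ± 0.27 (SE, n = 3 per group). The other helicase subunits had differences of -0.97 for Mcm3, -0.72 for Mcm5, -0.45 for Mcm6, -0.43 for Mcm2 and -0.17 for Mcm7. Orc1 and Orc6, subunits of the origin recognition complex, had -0.51 and -0.31, and Cdt1, the partner of Cdc6 in loading, had -0.41. Orc1 was detected on 2 of 3 arrays in each group. Gmnn, the inhibitor of Cdt1, was detected on no array.

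The genes that turn the loaded helicase on had a median difference of -0.76, and all 6 were negative. Mcm10, a factor of helicase activation, had 10.21, 10.37 and 8.49 in KAP1 KO, against 10.71, 10.65 and 10.51 in WT. Every KAP1 KO array was under every WT array, and only KO3 was far from the rest. The difference was -0.93 ± 0.45 (SE, n = 3 per group), and that of its other tested probe was -1.04. Gins3, a subunit of the GINS complex, had 7.94, 7.39 and 6.73 in KAP1 KO, against 7.96, 8.00 and 7.71 in WT. KO1 lay within the WT range, and the difference was -0.54 ± 0.31 (SE, n = 3 per group). Gins4, another subunit, had 10.96, 11.37 and 10.87 in KAP1 KO, against 11.06, 11.17 and 11.01 in WT. The groups overlapped, with a difference of -0.01 ± 0.22 (SE, n = 3 per group), and it became 0.09 without KO3. Cdc45, which completes the active helicase, had -0.76, and the GINS subunits Gins1 and Gins2 had -0.76 and -0.78.

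Both catalytic subunits of the polymerases that extend the strands were lower on each KAP1 KO array than on any WT array. Pold1, the catalytic subunit of polymerase delta, had 10.85, 10.97 and 10.05 in KAP1 KO, against 11.52, 11.23 and 11.34 in WT. The knockout arrays were all under 11, and the difference was -0.74 ± 0.28 (SE, n = 3 per group; limma, unadjusted p = 0.0277, adjusted p = 0.998). Pole, that of polymerase epsilon, had 8.44, 8.29 and 6.69 in KAP1 KO, against 9.06, 8.81 and 8.59 in WT. KO3 was again far under the rest, and the difference was -1.01 ± 0.44 (SE, n = 3 per group; limma, unadjusted p = 0.0471). The subunits of the priming complex were nearer 0, with -0.39 for Pola2, 0.11 for Prim1 and -0.00 for Prim2. Pola1 and Pole2, the catalytic subunit of polymerase alpha and a further subunit of epsilon, were detected on no array.

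The clamp and its loader had a median difference of -0.44, and all 6 genes were negative. Rfc1, the large subunit of the loader, had 10.17, 9.94 and 9.74 in KAP1 KO, against 10.32, 10.32 and 10.54 in WT. There was no overlap between the groups, with a smaller spread among the knockout arrays than for Cdc6 or Pole and with a difference of -0.44 ± 0.21 (SE, n = 3 per group). Rfc2, a small subunit, had 11.08, 11.58 and 10.65 in KAP1 KO, against 11.51, 11.40 and 11.53 in WT. KO2 was above every WT array, and the difference was -0.38 ± 0.26 (SE, n = 3 per group). Its other tested probes had -0.25, -0.15 and -0.17. Pcna, the clamp, had 8.34, 8.74 and 6.94 in KAP1 KO, against 9.001, 8.55 and 7.76 in WT. Its WT arrays were themselves spread over more than 1 log2 unit, and its difference was -0.43 ± 0.49 (SE, n = 3 per group). The remaining loader subunits had -0.48 for Rfc3, -0.57 for Rfc4 and -0.23 for Rfc5. Without KO3 the median of the group was 0.01.

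In the group of single-strand binding and Okazaki fragment joining, the joining enzyme differed most. Lig1, which seals the fragments, had 11.04, 11.15 and 9.53 in KAP1 KO, against 11.66, 11.39 and 11.19 in WT. KO2 was only just under WT6, and the difference was -0.84 ± 0.41 (SE, n = 3 per group). Its other tested probes had -0.83 and -0.16, so the probes of this gene differed in size. Fen1, the nuclease that trims the fragments, had 11.26, 11.34 and 10.42 in KAP1 KO, against 11.43, 11.56 and 11.33 in WT. KO2 reached into the WT range, and the difference was -0.43 ± 0.28 (SE, n = 3 per group). The large single-strand binding subunit Rpa1, which also acts in DNA repair, had 13.13, 12.87 and 12.89 in KAP1 KO, against 13.03, 12.83 and 12.95 in WT. The groups overlapped, with a difference of 0.03 ± 0.20 (SE, n = 3 per group), and it was one of the few genes for which KO3 was not the lowest array. The smaller subunits Rpa2 and Rpa3 had -0.35 and 0.00.

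The nucleotide supply genes were all negative, with a median of -0.47. For 0 of the 5 every KAP1 KO array lay below every WT array, a count near the background of 3.39% of all tested genes. Dut, which removes dUTP, had 8.06, 7.90 and 6.98 in KAP1 KO, against 8.29, 8.13 and 7.93 in WT, a difference of -0.47 ± 0.31 (SE, n = 3 per group). Its second tested probe had -0.04. Tk1, thymidine kinase, had 9.67, 10.56 and 8.21 in KAP1 KO, against 10.16, 10.43 and 10.09 in WT, a difference of -0.74 ± 0.51 (SE, n = 3 per group). For Tk1, KO2 was the highest array of all and KO3 the lowest. Tyms, thymidylate synthase, had 10.66, 11.64 and 9.64 in KAP1 KO, against 10.94, 11.53 and 10.87 in WT. It showed the same order of the knockout arrays, with a difference of -0.47 ± 0.46 (SE, n = 3 per group) that was 0.03 without KO3. Rrm1 and Rrm2, the subunits of ribonucleotide reductase, had -0.36 and -0.53. The second tested probes had -0.58 for Tk1, -0.22 for Tyms, -0.62 for Rrm1 and -0.15 for Rrm2.

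Of the genes that package DNA behind the fork, the subunits of chromatin assembly factor 1 were tested. Chaf1a had 9.23, 9.08 and 8.05 in KAP1 KO, against 9.64, 9.49 and 9.80 in WT. Every KAP1 KO array was under every WT array, and the difference was -0.86 ± 0.32 (SE, n = 3 per group; limma, unadjusted p = 0.0275, adjusted p = 0.998). Chaf1b had 9.43, 10.28 and 8.54 in KAP1 KO, against 10.40, 9.94 and 9.74 in WT, a difference of -0.61 ± 0.41 (SE, n = 3 per group). KO2 lay within the WT range for Chaf1b. Slbp, which binds histone mRNA, was detected on no array.

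The regulators of the step into S phase had a median difference of -0.79, and all 4 tested were negative. E2f1, an activating E2F factor, had 9.20, 9.58 and 7.72 in KAP1 KO, against 9.93, 9.61 and 9.75 in WT. KO2 and WT5 nearly met, and the difference was -0.93 ± 0.44 (SE, n = 3 per group). The E cyclins, which drive Cdk2, had -0.87 for Ccne1 and -0.69 for Ccne2. E2f8, a repressing E2F factor, was detected on no array.

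E2f2 differed from the other genes in which arrays were low. E2f2, an activating E2F factor that in mice also restrains T cell division, had 11.77, 11.72 and 12.27 in KAP1 KO, against 12.56, 12.75 and 12.62 in WT. The groups did not overlap, and KO3 was the highest of the knockout arrays, where it was the lowest for 40 of the 43 genes. The difference was -0.72 ± 0.23 (SE, n = 3 per group), with a 95% interval from -1.24 to -0.21 (limma, unadjusted p = 0.0118, adjusted p = 0.998). A second tested probe gave 11.58, 11.28 and 11.90 in KAP1 KO, against 12.10, 12.39 and 12.27 in WT. Its groups did not overlap either, and the difference was -0.67 ± 0.23 (SE, n = 3 per group). In the pairs, the differences of the first probe were -0.79, -1.03 and -0.34. With each array left out in turn, the difference stayed between -0.91 and -0.61, and the unadjusted p was under 0.05 in all 6 fits, while the lowest adjusted p was 0.884.

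**Figure D4:**
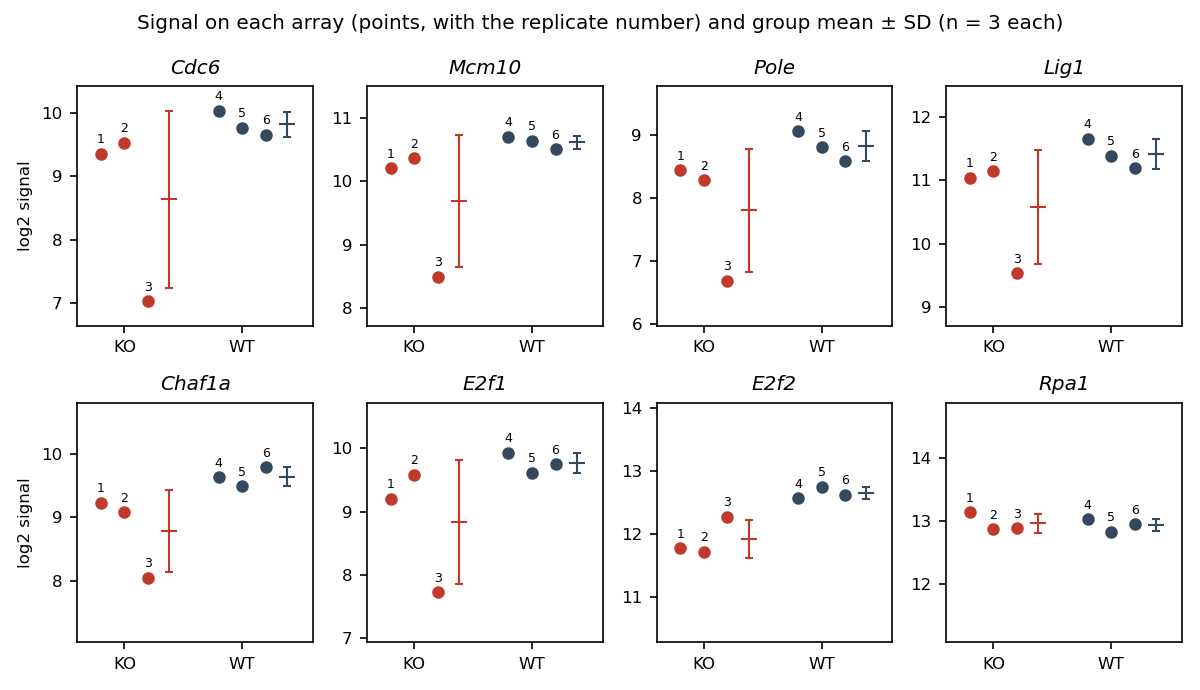
Log2 signal on each array, labelled with its replicate number, with the group mean ± SD (n = 3 each), for 8 of the genes, KAP1 KO left of WT. The genes drawn were chosen after their values were seen. In each panel but that of Rpa1 the groups do not overlap, while over the 43 tested genes this held for 10. KO3 is the lowest point for Cdc6, Mcm10, Pole, Lig1, Chaf1a and E2f1 and the highest knockout point for E2f2.

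Further genes of replication and the G1/S step were also mostly lower in KAP1 KO. KO3 was the lowest array for 43 of the 68 tested, against 19.7% of all tested genes, and KO2 for 13. Of 82 such genes on the array, 68 were tested, and 56 were lower, against 52.1% of all tested genes. At an unadjusted p under 0.05, 9 were lower, against 1.28%, and 0 passed the adjusted threshold in limma. The median difference was -0.30. Among 27 genes of origins and the fork, 21 were lower, and every KAP1 KO array lay below every WT array for 10, against 3.39% of all tested genes. Recql4, a helicase that acts at origins, had 7.11, 7.22 and 5.93 in KAP1 KO, against 7.63, 7.54 and 8.25 in WT, a difference of -1.05 ± 0.37 (SE, n = 3 per group). Clspn, a fork protein of the replication checkpoint, had 10.58, 10.12 and 8.94 in KAP1 KO, against 11.02, 10.94 and 10.81 in WT, a difference of -1.05 ± 0.39 (SE, n = 3 per group). For both genes KO3 was the lowest of 6 arrays and the groups did not overlap. Cdc7, the kinase that fires origins, had a difference of -0.71 ± 0.27, and Wdhd1, a fork protein that links the helicase to polymerase alpha, one of -0.57 ± 0.21 (SE, n = 3 per group). Further nucleotide supply genes were lower in 13 of 16, with a median of -0.41, and Mthfd1, of the folate cycle, had -0.78 ± 0.43. Further chromatin genes were lower in 10 of 10, with a median of -0.32. Other G1/S regulators were lower in 12 of 15, with a median of -0.20, and Mybl2, a partner of the MuvB complex, had -1.04 ± 0.44.

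Mitosis and G2/M genes were also lower, and KO3 was again the lowest array for most, 24 of the 34 tested, against 19.7% of all tested genes. Of 34 tested, 32 were lower, against 52.1% of all tested genes, with a median difference of -0.38. At an unadjusted p under 0.05, 4 were lower, against 1.28%, and 0 passed the adjusted threshold in limma. Their mean centred level was 0.10, -0.13 and -0.52 on KO1, KO2 and KO3, against 0.25, 0.38 and -0.07 on WT4, WT5 and WT6. In the 3 pairs the median differences were -0.14, -0.51 and -0.48, where those of the replication genes were -0.38, -0.03 and -0.998. The mitotic genes were thus lower on KO2 than on WT5 and the replication genes close to equal there. The difference between the lists was not tested. Foxm1, a transcription factor of mitotic genes, had 8.41, 8.54 and 8.10 in KAP1 KO, against 9.12, 9.15 and 8.96 in WT, a difference of -0.72 ± 0.21 (SE, n = 3 per group). Of the D cyclins, their kinases and the kinase inhibitors, 5 of 9 tested were lower, with a median of -0.07.

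Markers of cell stages moved between the arrays as well. Mature single-positive markers were higher in KAP1 KO for 8 of 8 tested, 4 of them at an unadjusted p under 0.05 in limma, against 2.22% of all tested genes. Their summed linear signals were 6524.4 to 7729.0 in KAP1 KO, against 4592.6 to 6367.1 in WT. S1pr1 and Ms4a4b, 2 of its defining markers, were detected on no array. The mean centred level of these markers was 0.27, 0.70 and 0.05 on KO1, KO2 and KO3, against 0.08, -0.66 and -0.45 on WT4, WT5 and WT6. Their level was highest on KO2, which was also the knockout array with the highest replication level. KO2 was the highest array for dendritic cell and MHC class II markers too, at 0.82, and for macrophage markers, at 0.67. Over all 8200 tested genes, KO2 was the lowest array for 29.1% and the highest for 2184, more than any other array in both. A link between the levels was not tested. Double-positive markers were lower on KO2, at -0.47, than on KO1 and KO3, at 0.17 and 0.14, and lay between -0.06 and 0.13 in WT. Double-negative markers, tested for 9 genes, had summed signals of 3187.1 to 3305.5 in KAP1 KO, against 3072.1 to 3608.4 in WT.

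Markers of other cells also varied between the arrays, where 52.1% of all tested genes were lower in KAP1 KO. Of the lists below, 0 genes passed the adjusted threshold in limma. At an unadjusted p under 0.05, 6 dendritic cell and MHC class II markers were higher, against 2.22% of all tested genes. Among macrophage markers 1 was higher, and among neutrophil markers 1 was lower, against 1.28%. The summed signals of the groups overlapped for neutrophil and macrophage markers. Dendritic cell and MHC class II markers were higher in KAP1 KO for 6 of 7 tested, with summed signals of 7598.4 to 13849.2 in KAP1 KO, against 4293.6 to 5574.3 in WT. Itgax, Flt3 and Xcr1, which define dendritic cells, were detected on no array. Neutrophil markers were lower for 7 of 7 tested, with summed signals of 2608.8, 3077.1 and 852.2 on KO1, KO2 and KO3, against 4325.2, 2257.6 and 1625.1 on WT4, WT5 and WT6. Like the replication genes, they were lowest on KO3, and Csf3r was detected on no array. Macrophage markers were higher for 5 of 5 tested, with summed signals of 758.6 to 1666.5 in KAP1 KO, against 557.0 to 1064.6 in WT. The macrophage markers Adgre1 and Cd14 were detected on no array, and Cd68 is not on the array. The part of these cells, or of the stage markers, in the replication signal was not tested.

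**Figure D5:**
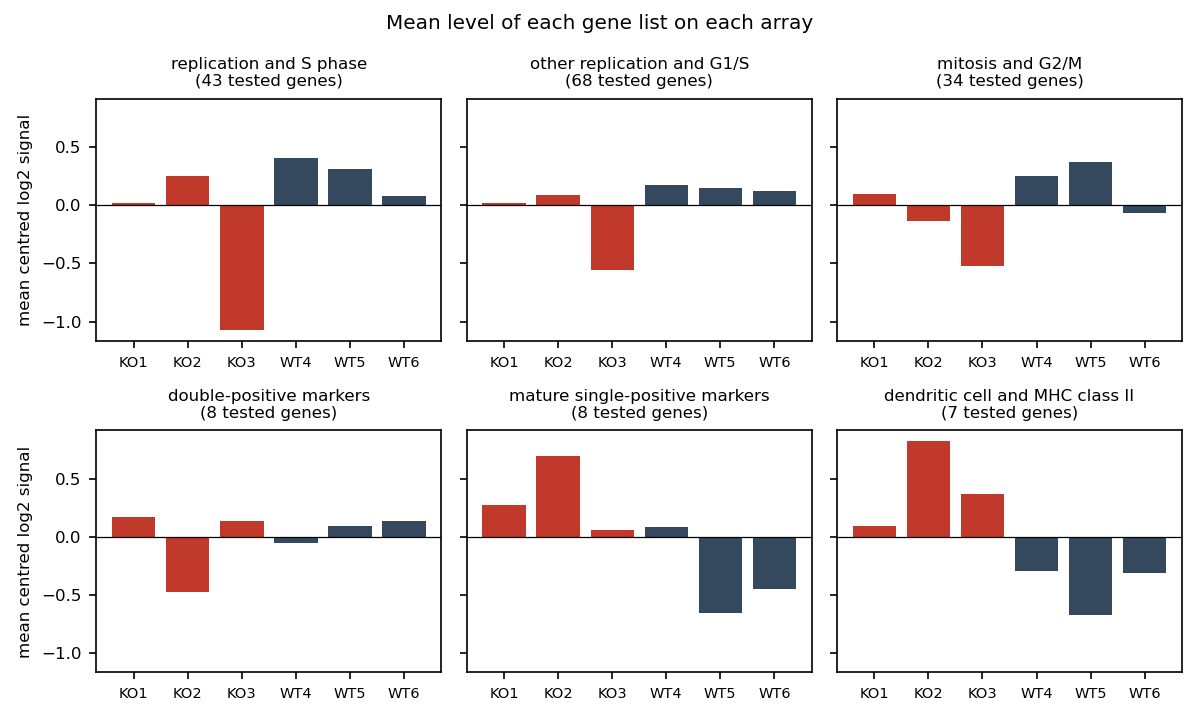
Mean over the tested genes of a list of the log2 signal minus the gene's mean, on each array, KAP1 KO left of WT. The replication and S phase list is at 0.02, 0.25 and -1.07 on the knockout arrays, against 0.41, 0.31 and 0.08 on the WT arrays. The 3 marker lists shown do not have their lowest level on KO3, while the neutrophil list, which is not shown, does, at -0.86.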

How the data were processed

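The deposited probe signals are intensity values on a linear scale, not normalized between arrays, and stand beside detection p-values, per the file headers. BeadStudio 3.1.3 is named in the submitters' processing notes, without settings. The authors' processed intensity table of the same arrays served as an alternative.

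Signals were background-corrected, quantile-normalized and put on the log2 scale with neqc (offset 16) in limma 3.58.1 under R 4.3.3. A log2 difference is on the scale of signal plus 16, which understates changes of dim probes. The 14651 probes with a detection p under 0.01 on at least 3 arrays were tested, KAP1 KO against WT, with lmFit and eBayes and no covariate. There were 4 residual and 4.51 prior degrees of freedom. P-values are two-sided, adjusted by Benjamini-Hochberg over every tested probe and called under 0.05. The number of arrays limits precision, and the median standard error was 0.257. The fit was tested on simulated data.

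Probe names came from the platform annotation, updated through GRCm38.p6. The genes and lists were chosen with earlier results of these data known. By rule, array values are given for the 2 genes of each role with the smallest p and the brightest one. Pcna, the second probe of E2f2 and the 4 printed promoters were chosen after their values were seen.

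The labels number the groups differently, so they give no pairs. For neighbouring header numbers, deviations from the group means correlated at 0.13 (KO1 and WT4), 0.16 (KO2 and WT5) and 0.52 (KO3 and WT6), although KO2 and WT4 reached 0.32. The pair, and the first 2 pairs against the third as cohorts, were used as blocks in alternatives. Other alternatives were the background correction, the offset, the filter, the prior, array weights, the probe that stands for a gene, and each array left out.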

Additional observations from a re-analysis of the deposited data

How the results depend on the processing

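No replication gene passed the adjusted threshold under any alternative run, and the median log2 difference was negative in each, from -0.40 without background correction to -0.60 with array weights on all 6 arrays, from -0.79 without KO2 to -0.12 without KO3 when an array was left out, and -0.24 on the 4 arrays of the first 2 pairs, a setting chosen after seeing the data. The number of probes past the threshold on the whole array, 4, was 2 without background correction, 1 without the filter on dim probes, 2 with the pair as a block, 0 on those 4 arrays, and 0 to 1 with an array left out. The number of replication genes whose groups did not overlap, 10, was 10 to 24 with an array left out. It was 13 without KO1, 24 without KO2, 10 without KO3, 11 without WT4, 11 without WT5 and 19 without WT6. In the same order, 11.2%, 9.49%, 7.8%, 6.68%, 7.07% and 7% of all tested genes had KAP1 KO below WT on every array. On the 4 arrays the number was 19. There 23.9% of all tested genes were separated, a share that counts either direction, unlike those before it. The number lower at an unadjusted p under 0.05, 4 in limma, was 9 without KO1, 19 without KO2, 1 without KO3, 1 without WT4, 3 without WT5 and 1 without WT6, and 14 with array weights; 2.69%, 2.47%, 1.08%, 0.741%, 0.744%, 0.631% and 2.1% of all tested genes did so in the same order. It was 12 with the first 2 pairs against the third as a cohort block (2.06%), 7 without background correction (1.29%), 6 with a trended and robust prior (1.21%), 6 when the tested probes of each gene were averaged (1.63%) and 1 on the 4 arrays (0.584%). For the named genes, 316 differences under the alternatives kept their direction and 7 did not. Gins4, at -0.01, ran from -0.16 to 0.089 with an array left out and was 0.054 on the 4 arrays. Rpa1, at 0.03, ran from -0.059 to 0.074 with an array left out and reached 0.12 with array weights. With an array left out, Tyms, at -0.47, ran from -0.96 without KO2 to 0.033 without KO3. The causes were not tested. A slide block was not run, since no slide is given. No paired analysis was possible from the labels because the groups share no replicate number.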
